A study of Mus musculus with 13 samples.

Results

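The 35 genes described here are the adipogenesis and lipid handling genes of mouse mammary fibroblasts, read by symbol from the 32285 genes listed for each of 13 droplet single-cell RNA libraries. They were chosen by name for their place in fat cell formation and lipid metabolism. By role, 5 act in fatty acid uptake and carriage, 8 are transcription factors of adipogenesis or lipid synthesis, 5 coat or shape lipid droplets, 5 are products of mature adipocytes, 2 break triglycerides down, 5 build them and 5 make or desaturate fatty acids. All 35 were found in the files, and 34 had at least 1 UMI (a unique molecular identifier, which counts 1 captured RNA molecule) in fibroblasts. Lep, the gene of the satiety hormone leptin, had none in any library.

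The study followed mammary fibroblasts over 5 stages of the gland, under a hormone treatment and in a tumour model. The stage libraries were 1 each from mice at 4 weeks (puberty) and 9 weeks (adult), at day 14.5 of pregnancy, on day 10 of nursing (lactation) and 4 days into involution, all wildtype C57BL/6 with the cells of 2 females per condition. Placebo and MPA+E each had 2 libraries of wildtype C57BL/6 mice; MPA+E stands for pellets of medroxyprogesterone acetate, a synthetic progestin, with estradiol. The pellets, or placebo, were given at 8 weeks, and the glands were taken 7 days later, at 9 weeks, from 2 mice per replicate. These 9 libraries came from stromal cells sorted as negative for the lineage markers and for CD24, the lineage markers being those of endothelial and blood cells. Hyperplasia and tumour had 2 libraries each from raGFP-Wnt1 mice, which carry a Pdgfra-GFP reporter allele and an MMTV-Wnt1 transgene on a background mixed from C57BL/6 and FVB. Their cells were sorted for GFP. The MMTV promoter drives Wnt1 mainly in mammary epithelium. Hyperplasia 1 and tumour 1 came from 1 mouse of 45 weeks, and hyperplasia 2 and tumour 2 from 1 mouse of 17 weeks.

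Fibroblast barcodes were those with 500 to 7500 genes, at most 10% mitochondrial UMIs, at least 50 UMIs of Dcn, Lum and Col1a2 per 10000 and no UMI of Epcam, Pecam1, Rgs5, Sox10, Ptprc or Myog. There were 100523 in all, 4236 to 11951 per library, with a median of 3990 to 20256 UMIs each. They made up 84.7% to 94.5% of the barcodes within the limits on genes and mitochondrial UMIs. Fibroblast UMIs summed to 47521842 to 102522735 per library, and levels below are CPM, the counts per 1000000 fibroblast UMIs of the library. Between any 2 libraries 3 to 34 fibroblast barcodes had the same sequence, at most 0.503% of the smaller library. Exact Poisson intervals on a level, and exact conditional intervals on a ratio of 2 levels, are at 95% and cover counting error only.

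In adipogenesis, mesenchymal progenitors first commit to preadipocytes and then mature into lipid-laden adipocytes. C/EBPβ and C/EBPδ come early, and induce PPARγ and C/EBPα, which then maintain each other and switch on the genes of fatty acid uptake, lipid droplets and adipokines. In the mammary gland the epithelium grows within a fat pad, whose adipocytes lose lipid in lactation and refill in involution. Mature adipocytes float and are usually lost from a stromal cell suspension, while preadipocytes stay in it. Fabp4 and Cd36 are also strong genes of capillary endothelial cells.

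C/EBP factors bind palindromic sites with the core TTGCNNAA, where N is any base, and the promoters of the members were read for these letters on both strands. RefSeq promoters on GRCm38.p6, 250 bases before to 50 after a start site, were matched for 25 of the 35 members. The core stood in 6 of these 25 (24.0%), namely Pparg, Zfp423, Plin1, Cidec, Lep and Gpam, and in 3298 of 27025 genes (12.2%) overall. Lep and Cidec had too few UMIs to be tested under MPA+E, and Fabp4 and Fabp5 had no promoter matched. How often genes with the core passed that test, where 4.34% of all genes passed, was not counted. For Pparg, Zfp423 and Gpam, which passed it, 1 match each is shown with the core in capitals, in the direction of the gene.
Pparg: tgtaccaagtcTTGCCAAAgcagcagacag
Zfp423: gcctgcaaactTTGCACAAaaatccggcaa
Gpam: ctcctccactgTTGCAAAAccatcctggac
The Pparg match lay at chr6:115421840-115421869 on the plus strand, its core starting 215 bases before the start site that RefSeq gives, which is inside the span of the gene and not at its 5′ end. Zfp423 had its core 131 bases before the start, at chr8:87959708-87959737 on the minus strand, and Gpam 8 bases after it, at chr19:55127212-55127241 on the minus strand. A match describes these letters in these windows and shows no binding.

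Fibroblasts carried the RNA of most of these genes, but 7 of them that are characteristic of mature adipocytes were at or near 0. Lpl, the lipase that frees fatty acids from circulating lipoproteins, ran from 254 to 1324 CPM over the 13 libraries and Cebpd from 451 to 1875. At the other end Adipoq (adiponectin) had 54 UMIs in all 13 libraries together, Cidec, which fuses lipid droplets in white fat, 27, Pck1, an enzyme of glycerol supply, 9 and Lep 0. Retn (resistin) had 99, Plin1, the main droplet coat of adipocytes, 164 and Cfd (adipsin) 174. Lep at 0 allows at most 0.0293 to 0.0631 CPM, the level of 3 UMIs. No library stood above 0.944 CPM for any of these 7 genes. Car3, also counted here as an adipocyte product, was an exception at 0.0195 to 38.5 CPM. A list of 12 further adipocyte markers summed to only 1.67 to 5.29 CPM, close to 0 in all 13 libraries.

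The other members were detected in every library. Acsl1, which activates fatty acids, stood at 4.59 to 7.93 CPM, and Srebf1, the transcription factor of lipid synthesis, at 12.8 to 32.1 with its highest value in lactation. Plin3, a droplet coat found in most cells, ranged from 56.0 to 93.8, and Dgat1, which makes triglyceride, from 7.86 to 15.3. The enzymes of fatty acid synthesis had Acly at 52.4 to 102, Acaca at 17.5 to 25.8 and Scd1 at 23.9 to 94.2 CPM. These ranges compare each gene with itself across libraries and not one gene with another. On GRCm38 (GENCODE M21) Fabp4 lies at chr3:10204088-10208576, minus strand, its relative Fabp5 at chr3:10012548-10016607, plus strand, Pparg at chr6:115360951-115490399, plus strand and Gpam at chr19:55067268-55127238, minus strand. The heatmap of all members shows these levels by role.

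**Figure D1:**
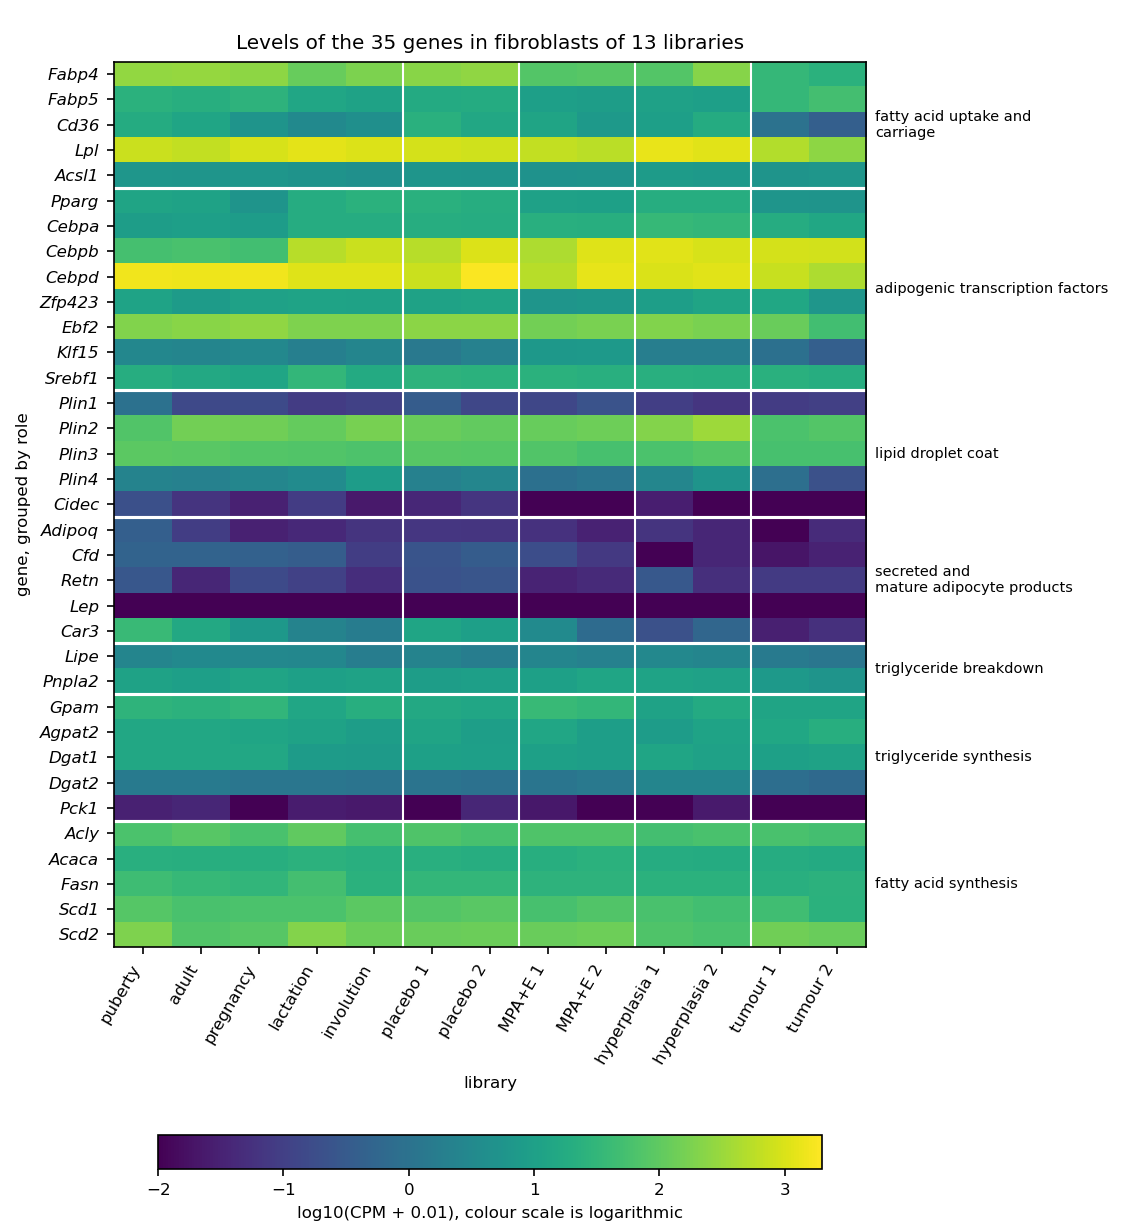
Level of each of the 35 genes (rows, grouped by role) in fibroblasts of each of the 13 libraries (columns), as log10 of CPM + 0.01. Lep is at 0 throughout, Adipoq, Cidec and Pck1 are near it, and Cebpb is lower in puberty, adult and pregnancy than in the other 10 libraries.

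Fabp4 and Cd36 were far more abundant in endothelial cells and pericytes than in fibroblasts, with median Fabp4 levels of 26729, 6175 and 179 CPM over libraries. Fabp4, a fatty acid carrier of adipocytes and capillaries, had a UMI in 8.29% to 27.9% of fibroblasts (median 15.9%). The share was 8% to 100% of endothelial barcodes (median 97.3%, 7 libraries with at least 20) and 80.3% to 97.8% of pericytes (median 97.2%, 9 libraries). Epithelial cells, which should lack it, had a median of 4.25% (0% to 14.3%, 7 libraries) at a median depth of 4420.0 to 13570.0 UMIs. After thinning each barcode to 2000 UMIs, the medians were 10.6% of fibroblasts and 1.64% of epithelial cells. Cd36, a fatty acid transporter, was seen in a median of 3.56% of fibroblasts, 92.0% of endothelial cells, 66.1% of pericytes and 0% of epithelial cells. Thinning lowered the fibroblast median for Cd36 to 1.12%.

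Lpl had a UMI in 66.6% to 93.3% of fibroblasts and 0.990% to 14.3% of epithelial cells. The shares were 30.4% to 64.0% of endothelial cells and 35.7% to 69.3% of pericytes. Its median level was 811 CPM in fibroblasts, 285 in endothelial cells and 268 in pericytes. Pparg was found in 2.20% to 20.1% of fibroblasts and 0% to 2.20% of epithelial cells, with medians of 28.0% of endothelial cells and 19.4% of pericytes. Its median level was 145 CPM in endothelial cells, 84.6 in pericytes and 12.4 in fibroblasts. For Plin2, a droplet coat present in most cell types, fibroblasts and epithelium overlapped at 29.3% to 64.4% and 26.4% to 60.7%. Adipoq was seen in a median of 0.0418% of fibroblasts and at most 0.154%, and in a median of 0% of epithelial cells (0% to 3.85%). The 12 endothelial markers together summed to 8.60 to 49.3 CPM in fibroblasts, with Kdr at 2.42 to 45.2. Of the 12, Tie1, Sox17 and Gpihbp1 were at 0 in 4, 6 and 3 of the 13 libraries and were detected in the others. The rest of the list is not given singly here. These values stand beside each result on Fabp4, Cd36 and Pparg below. The part of free RNA, remaining endothelial cells or pericytes in them was not tested beyond the removal of barcodes given there.

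Among the named fibroblast classes, Fabp4, Cd36, Pparg, Plin4, Fabp5 and Car3 were most often highest in the preadipocyte-like cells, and Plin2, Cebpb, Ebf2 and others in other classes. Clusters were made without the 35 genes and were named from fixed markers that hold none of them, in the stage, hormone and raGFP-Wnt1 libraries apart, and 5 named classes were compared. Preadipocyte-like cells, named in these 3 sets on 3, 4 and 7 of 7 markers at 2 fold or more (among them Aoc3 and Olfm2), made up 3.80% to 21.4% of fibroblasts. In the stage libraries they were cluster 1, whose 10 leading genes hold Adam12, a myofibroblastic marker, and the chemokines Cxcl9 and Ccl19 but none of its own 7 markers. The chemokine Cxcl9 also led the preadipocyte-like clusters of the other 2 sets. All cells of a library share its depth and its free RNA, and a class against the rest of its own cells is a description with no test. Unnamed clusters, cycling cells and classes under 50 cells in a library were not compared. This left out the lobular-like class in both tumours (40 and 0 cells). The 2 largest unnamed clusters there held 24.5% and 13.1% of tumour 1 and 30.03% and 29.2% of tumour 2 fibroblasts.

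Fabp4 was highest in the preadipocyte-like class, of the classes compared, in 13 of 13 libraries. Its level there was 1346, 1160.1, 871, 256 and 295 CPM from puberty to involution, 994 and 1343 in placebo, 301 and 267 in MPA+E, 289 and 882 in hyperplasia and 70.0 and 145 in tumour. The progenitor-like class, marked by Pi16 and Dpp4, held 4.36 to 38.7 CPM of Fabp4, and the classes did not overlap. Cd36 was likewise highest in the preadipocyte-like class in all 13, at 92.4, 53.4, 19.8, 7.61 and 8.35 CPM over the stages, 99.5 and 75.4 in placebo, 47.8 and 27.3 in MPA+E, 47.4 and 87.9 in hyperplasia and 4.75 and 2.61 in tumour. The endothelial markers summed to 3.28 to 17.0 CPM in preadipocyte-like cells and 4.40 to 88.2 in progenitor-like cells, mostly Kdr. These ranges overlap, and the part of endothelial RNA in the Fabp4 and Cd36 levels by class was not tested. Pparg and Plin4, a coat of small droplets, were highest in the preadipocyte-like class in 11 libraries each, and Fabp5 and Car3 in 10. Of the 24 members at 5 CPM or more, 5 were highest there in at least 10 libraries, against 0.819% of 9647 genes at that level.

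Other members marked other classes. Plin2, Cebpb and Cebpa were most often highest in the ECM remodelling-like class, named from Crabp1 and Pla2g7, in 13, 12 and 10 libraries. Plin2 stood there at 131 to 718 CPM (median 282). The progenitor-like class led for Ebf2, a factor of adipocyte commitment, for Plin3 and for Acly in 13 libraries each, for Zfp423, which marks preadipocyte commitment, and Scd2 in 12, and for Scd1 in 11. Ebf2 stood at 124 to 449.6 CPM in progenitor-like cells. Both commitment factors were thus most often highest in a different class from Pparg. The plot of 8 members by class shows the 5 classes side by side in all libraries.

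**Figure D2:**
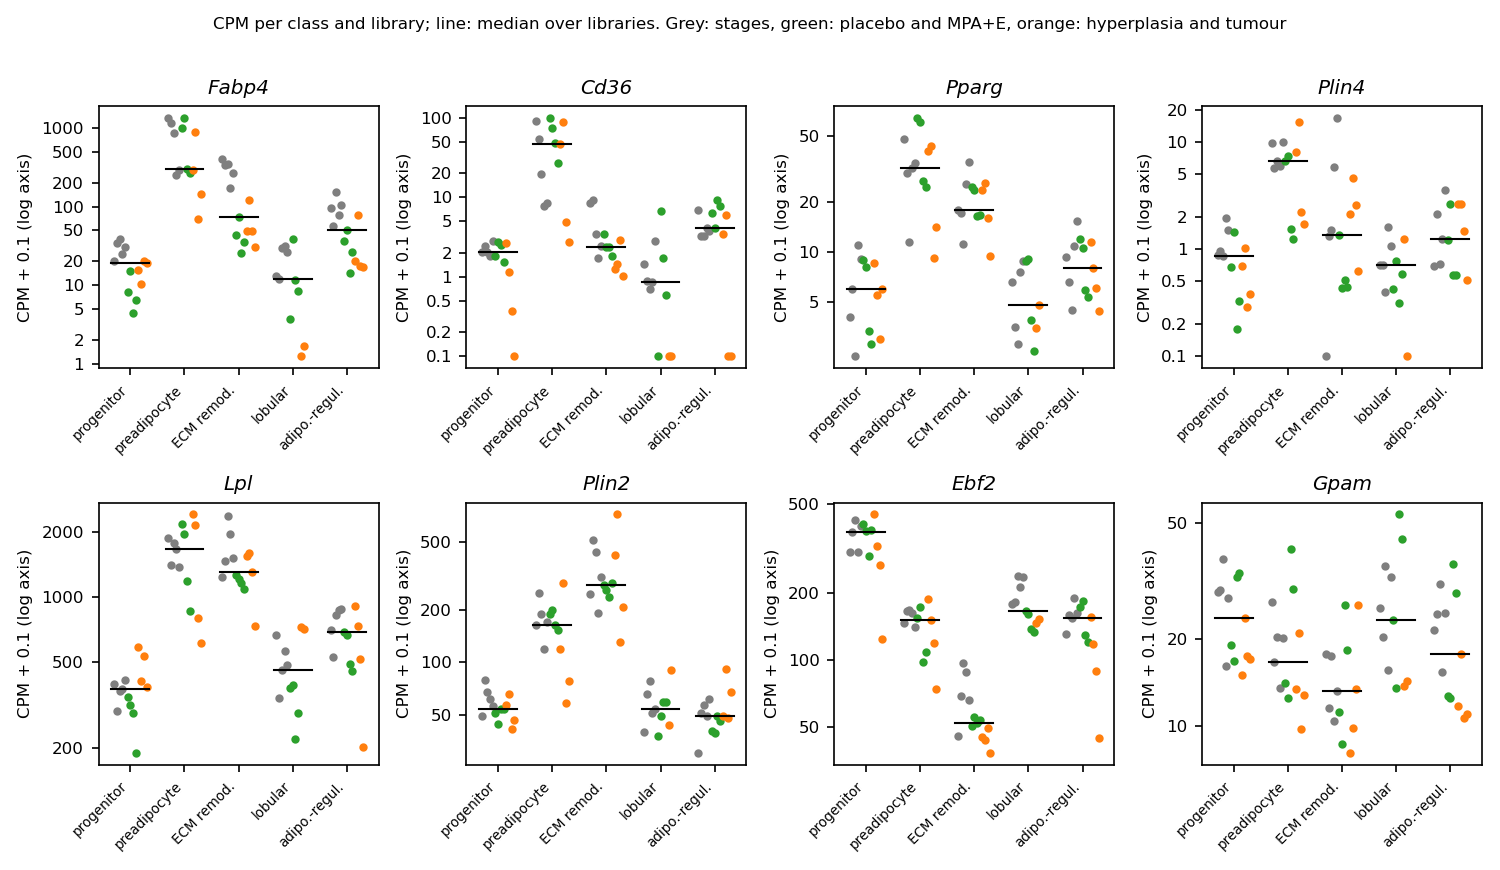
CPM + 0.1 on a log axis of 8 genes in 5 named fibroblast classes; each point is 1 library with at least 50 cells of the class, coloured by set (grey stages, green placebo and MPA+E, orange hyperplasia and tumour), and the line is the median over libraries. Fabp4 and Cd36 are highest in preadipocyte-like cells, Plin2 in ECM remodelling-like cells and Ebf2 in progenitor-like cells.

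Over the 5 stages Cd36, Car3 and Plin1 were highest in puberty, Fabp4 and Cfd in the adult, and Cebpa, Cebpb and Pparg in lactation and involution. With 1 library per stage there is no test. Of 30 members with at least 30 UMIs in their highest stage, 7 (23.3%) differed at least 3 times between the highest and lowest stage, against 14.1% of 14286 genes. Between the 2 placebo libraries, which are of 1 group, 0.516% of 13748 genes differed that much, and the members differed by a median of 1.14 times and at most 2.77 (Plin1). The placebo values are from 1 pair of libraries, for genes with a UMI in both. The stage shares take the highest and lowest of 5 libraries, so the measures are unlike. Values below run in the order puberty, adult, pregnancy, lactation and involution. The plot of 12 members by library shows them with their counting intervals.

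**Figure D3:**
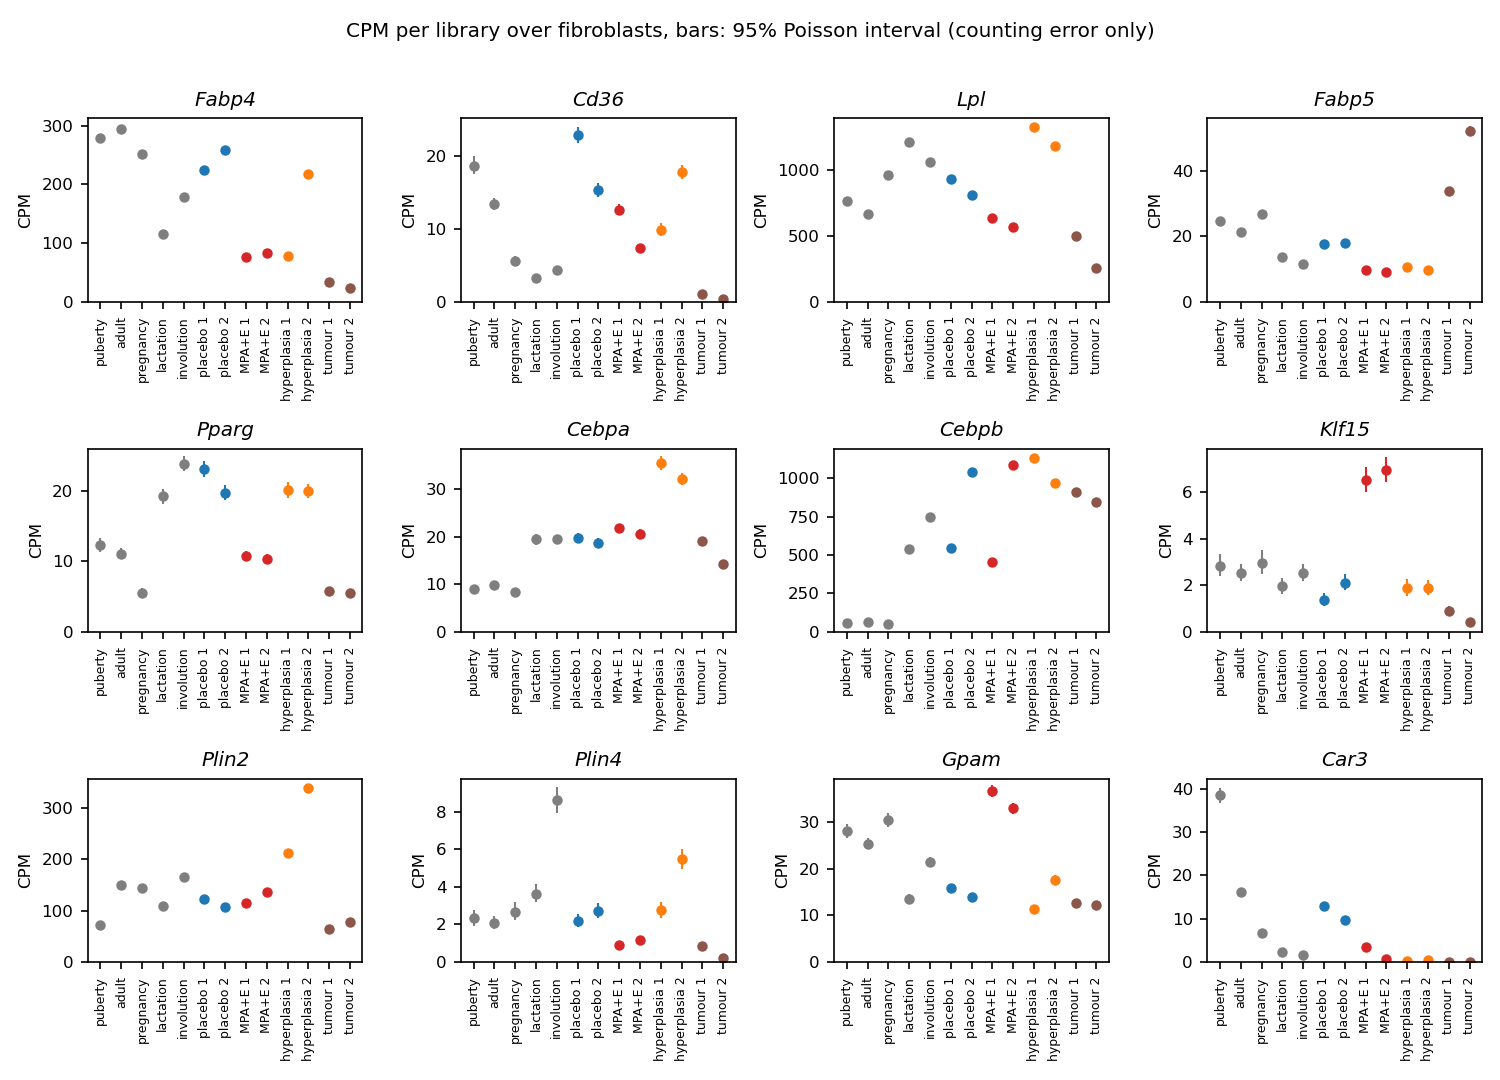
CPM of 12 genes in fibroblasts of each library; bars are exact 95% Poisson intervals (counting error only), stages in grey, placebo blue, MPA+E red, hyperplasia orange and tumour brown. Fabp4 is lower in both MPA+E libraries than in both placebo libraries and lower in both tumour than in both hyperplasia libraries, and Fabp5 is highest in the tumours.

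Among the uptake genes, Cd36 read 18.7, 13.4, 5.60, 3.27 and 4.29 CPM. Puberty was highest and lactation lowest, a ratio of 5.71 times (95% interval 4.90 to 6.67) between these 2 libraries. With non-fibroblast barcodes kept, lactation no longer lay below puberty and the ratio was 0.870. Fabp4 was at 279.6, 295, 252, 115 and 179 CPM, 2.56 times (95% interval 2.50 to 2.63) higher in the adult than in lactation and so just under the limit of 3. Fabp5, the epidermal type of fatty acid binding protein, was at 24.5, 21.1, 26.6, 13.5 and 11.5, with lactation and involution lowest. Lpl had another order, at 763, 660.5, 961, 1211 and 1054, with its highest value in lactation. The endothelial markers summed to 27.1, 30.6, 49.0, 9.22 and 23.2 CPM, an order that Cd36 and Fabp4 did not share in pregnancy. Pericyte markers summed to 58.3, 32.0, 35.6, 29.4 and 29.4 CPM, highest in puberty as Cd36 was and Fabp4 was not. The part of either cell type was not tested.

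Of the transcription factors, Cebpb had the widest range, 55.7, 60.8, 48.5, 539 and 748 CPM. Involution stood 15.4 times (95% interval 14.8 to 16.1) above pregnancy, and puberty, adult and pregnancy formed a low group. The same 3 libraries were also below all other 10, at least 3 times, for 7 further genes of 10793 (Cyb5r1, Ephb3, Rerg, Spag7, Ppp2cb, Ccn2 and AY036118), and no gene was at least 3 times higher in the 3. These genes were named after their values were seen. Whether this split of libraries has a technical part was not tested, and every contrast of Cebpb with puberty, adult or pregnancy rests on it. Pparg, the central factor of adipogenesis, was at 12.4, 11.1, 5.53, 19.3 and 23.9, and involution stood 4.32 times (95% interval 3.80 to 4.94) above pregnancy. For reasons not tested, Pparg read 23.2 and 19.8 CPM in the 9-week placebo libraries where the 9-week adult read 11.1. Cebpa, its partner in maturation, was at 8.91, 9.85, 8.38, 19.4 and 19.4, with lactation and involution above the other 3. Cebpa too was lower in puberty, adult and pregnancy than in all other 10 libraries, which ran from 14.3 to 35.4 CPM, by less than the 3 times used above, and the 9-week placebo libraries read 19.7 and 18.7 where the 9-week adult read 9.85. Srebf1 stood at 20.2, 15.9, 12.8, 32.1 and 17.5, 2.51 times (95% interval 2.29 to 2.75) higher in lactation than in pregnancy. Cebpd read 1508, 1435, 1523, 1100.2 and 1102, Zfp423 12.05, 8.19, 11.03, 11.95 and 11.5 and Klf15, a glucocorticoid and fasting response factor, 2.83, 2.53, 2.97, 1.95 and 2.53 CPM.

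The droplet coats had no common order. Plin4 was at 2.32, 2.09, 2.67, 3.63 and 8.60 CPM and highest in involution, 4.12 times (95% interval 3.45 to 4.95) the adult level. Plin2 read 72.1, 151, 144, 109.7 and 166, with puberty alone low. The ECM remodelling-like class, where Plin2, Cebpb and Cebpa were most often highest, held 1.99%, 12.5%, 11.5%, 23.3% and 28.8% of fibroblasts. In these sums, class shares and levels within cells cannot be told apart. Plin1 was at 0.944, 0.135, 0.147, 0.0794 and 0.0942 CPM, from 46, 10, 7, 5 and 7 UMIs, so puberty exceeded lactation by 11.9 times (95% interval 4.75 to 38.4).

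Car3 had the widest range of the adipocyte products. This carbonic anhydrase of adipocytes and muscle was at 38.5, 16.1, 6.78, 2.32 and 1.68 CPM, lower at each next stage. Puberty stood 22.9 times (95% interval 19.1 to 27.6) above involution. With at least 100 UMIs of Dcn, Lum and Col1a2 per 10000 required, no library stood above 27.2 CPM, while 6988 of 7121 puberty barcodes were kept. Endothelial barcodes held 0 to 1774 CPM of Car3 over 7 libraries (median 127). The part of the removed barcodes and of endothelial cells in the Car3 levels was not tested. Cfd was at 0.472, 0.488, 0.442, 0.349 and 0.0808 CPM from 23, 36, 21, 22 and 6 UMIs, 6.04 times (95% interval 2.52 to 17.5) higher in the adult than in involution. Retn was at 0.267, 0.0271, 0.147, 0.0952 and 0.0404 CPM from 13, 2, 7, 6 and 3 UMIs. The further adipocyte markers summed to 5.29, 3.43, 3.05, 1.68 and 2.15 CPM, highest in puberty as Car3 and Plin1 were.

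The enzymes were steadier. Lipe, the hormone-sensitive lipase, read 2.59, 3.35, 2.97, 2.81 and 1.78 CPM and Pnpla2, the first lipase of triglyceride breakdown, 11.1, 9.74, 12.4, 10.4 and 11.5. Gpam, which starts glycerolipid synthesis, was at 28.1, 25.4, 30.5, 13.6 and 21.5 and lowest in lactation. Dgat2, which completes triglyceride, stood at 1.54, 1.53, 1.22, 1.21 and 1.08. Fasn, the fatty acid synthase, read 45.0, 35.7, 31.5, 51.4 and 24.2, and Scd2, a desaturase, 189.9, 73.8, 82.2, 212 and 127, both highest in lactation, where Scd2 was 2.87 times (95% interval 2.78 to 2.96) the adult level. In the same library the 22 genes of cholesterol synthesis summed to 1964 CPM, against 269 to 695 in the other 12. Milk protein genes summed to 872 CPM there, 39.1 in pregnancy and 13.4 in involution, and at most 0.138 elsewhere. Their part in the lactation values of the lipid enzymes was not tested.

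MPA+E lowered Fabp4, Fabp5, Pparg, Zfp423 and Retn and raised Gpam and Klf15. Of the 35 members, 31 had enough UMIs to be tested (not Cidec, Adipoq, Lep and Pck1), and 7 passed at an adjusted p under 0.05, 2 higher and 5 lower (edgeR quasi-likelihood test, Benjamini-Hochberg over 15634 genes). Of all genes tested, 4.34% passed, 2.69% higher and 1.64% lower. The median log2 fold change was -0.25 over the members tested and 0.01 over all genes. All fold changes are MPA+E over placebo, on the log2 scale with their standard errors, from 2 libraries against 2. Whether groups overlapped is stated here and in the comparisons below as description. It adds no support to a call made on the same libraries, and the share of all genes without overlap was not counted. The preadipocyte-like class held 15.2% and 13.2% of placebo and 15.9% and 11.8% of MPA+E fibroblasts, and the progenitor-like class 29.1% and 31.5% and 14.7% and 19.0%. The progenitor-like shares depended on the clustering, and at resolution 0.5 they were 26.8% and 28.6% in placebo and 21.2% and 28.0% in MPA+E. An unnamed cluster led by Cxcl13, Ccn5 and Pgr held 8.88% and 9.57% of placebo and 19.7% and 20.9% of MPA+E fibroblasts. In a sum over all fibroblasts, fewer cells of a class and less RNA per cell cannot be told apart.

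In fatty acid uptake, Fabp4 stood at 225 and 258 CPM in the placebo libraries and 75.5 and 82.4 in the MPA+E libraries, means of 241 ± 23.9 and 79.0 ± 4.90 (SD, n = 2 each). The groups did not overlap. Its log2 fold change was -1.60 ± 0.16 (edgeR adjusted p = 0.0121). Fabp5 was at 17.5 and 17.9 in placebo and 9.68 and 9.00 in MPA+E, again without overlap, a change of -0.91 ± 0.10 (edgeR adjusted p = 0.0173). Lpl and Cd36 were lower in both MPA+E libraries but did not pass. Lpl read 927 and 811 against 636 and 563 CPM (-0.52, edgeR adjusted p = 0.0814), and Cd36 22.8 and 15.3 against 12.6 and 7.34 (-0.92, edgeR adjusted p = 0.158). Endothelial markers went the opposite way to Fabp4, summing to 16.0 and 16.6 CPM in placebo and 46.3 and 49.3 in MPA+E. Of the 8 tested, 3 were higher, namely Vwf, Gpihbp1 and Kdr, the last at a log2 fold change of 1.65 ± 0.11 (edgeR adjusted p = 0.00699). Pericyte markers moved with Fabp4, from 52.2 and 52.6 to 24.8 and 22.4 CPM, with 2 of 6 lower, and epithelial markers from 29.9 and 27.6 to 5.15 and 5.01, with 1 of 2 tested lower. The part of these cells in the Fabp4 and Pparg values was not tested. With barcodes holding any endothelial UMI removed, 29 members were tested and 4.35% of all genes passed. Fabp4 (-1.59), Pparg (-0.82) and Zfp423 (-0.96) still passed lower and Gpam (1.17) higher, and Plin4 passed as well. Fabp5 (-0.71, edgeR adjusted p = 0.0605) and Klf15 (1.60, edgeR adjusted p = 0.0546) then missed the threshold, and Retn had too few UMIs to be tested. The removal took unequal shares of the groups, from 4843 to 4184 and 5760 to 4984 fibroblasts in placebo and from 5152 to 3572 and 8697 to 6368 in MPA+E, and Kdr, the largest part of the endothelial sum in these 4 libraries, itself rose under MPA+E.

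Among the factors, Pparg stood at 23.2 and 19.8 CPM in placebo and 10.7 and 10.4 in MPA+E, with no overlap, a change of -1.01 ± 0.09 (edgeR adjusted p = 0.0109). Zfp423 read 11.1 and 12.6 against 5.93 and 6.44, a change of -0.93 ± 0.15 (edgeR adjusted p = 0.0435). Klf15 was the member raised most, from 1.35 and 2.11 to 6.54 and 6.94 CPM, 1.96 ± 0.28 (edgeR adjusted p = 0.0292). Of the C/EBP factors, Cebpa was at 19.7 and 18.7 CPM in placebo and 21.7 and 20.6 in MPA+E, without overlap, Cebpb at 544 and 1043 and 454 and 1086, and Cebpd at 747 and 1875 and 533 and 1253. For Cebpb and Cebpd the 2 libraries of a group differed more than the groups did, and the libraries numbered 2 were higher in both groups. No C/EBP factor passed the test.

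The droplet coats and the enzymes of breakdown did not pass. Plin2 stood at 123 and 108 CPM in placebo and 115 and 137 in MPA+E, and Plin4 at 2.17 and 2.72 and 0.896 and 1.16 (-1.24, edgeR adjusted p = 0.0906), the latter without overlap. Plin1 read 0.346 and 0.125 and 0.126 and 0.219. Lipe was at 2.33 and 1.78 and 2.60 and 2.11, and Pnpla2 at 8.84 and 9.63 and 10.4 and 13.2. In triglyceride synthesis Gpam rose from 15.8 and 13.8 to 36.7 and 33.0 CPM, means of 14.8 ± 1.41 and 34.8 ± 2.59 (SD, n = 2 each), a change of 1.24 ± 0.09 (edgeR adjusted p = 0.00745). No placebo library reached the lower MPA+E library. Dgat2 (1.09 and 0.957 and 1.15 and 1.40), Fasn (31.6 and 31.5 and 26.4 and 26.3) and Scd2 (123 and 128 and 125 and 135) did not pass.

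Of the adipocyte products, Retn was lower, at 0.202 and 0.236 CPM in placebo and 0.0230 and 0.0329 in MPA+E, from 14 and 17 against 2 and 3 UMIs. The groups did not overlap, the change was -2.89 ± 0.49 (edgeR adjusted p = 0.0453), and the ratio of the summed levels was 0.128 (95% interval 0.0389 to 0.332, counting error only). Car3 stood at 12.8 and 9.72 and 3.49 and 0.702 CPM (-2.44, edgeR adjusted p = 0.134), lower in both MPA+E libraries, with a wide gap between those libraries. Cfd was at 0.230 and 0.333 and 0.172 and 0.0658.

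These calls depended on single libraries. Without placebo 1, 0 members passed and 11 had an unadjusted p under 0.05 (edgeR), and without placebo 2 the counts were 0 and 11. Without MPA+E 1 there were 8 and without MPA+E 2 there were 7. Of all genes 0.124%, 0.0185%, 5.69% and 4.95% passed in these 4 fits. With all barcodes kept, Klf15, Gpam and Pparg passed, with 2.83% of all genes. DESeq2 called 10 members and limma-voom 7, where the main test called 7, with 8.7%, 4.34% and 4.34% of all genes. DESeq2 added Cd36, Lpl, Ebf2 and Plin4, all lower, and did not call Retn (adjusted p = 0.0699). Retn also missed the threshold without the filter on low counts (edgeR adjusted p = 0.0778), with doublets removed (edgeR adjusted p = 0.0578) and without any 1 of the 4 libraries. Zfp423 too missed the threshold without the filter on low counts, where 2.54% of all genes passed. No scaling changed the direction of a call.

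By class, Gpam passed as higher under MPA+E in 4 of the 5 named classes and was at 1.10 in the other (ECM remodelling-like, edgeR adjusted p = 0.0625), and Fabp4, Pparg, Lpl and Plin4 passed as lower in the preadipocyte-like class. Outside that class Fabp4 had log2 fold changes of -1.09 in progenitor-like, -1.03 in adipogenesis-regulatory-like, -0.98 in ECM remodelling-like and -1.09 in lobular-like cells, none past the threshold. A call in 1 class and not in another does not show that the classes differ. In that class 28 members were tested, 1 passed higher and 4 lower, and 4.42% of all genes passed, 3.04% higher and 1.38% lower. Fabp4 there was at 994 and 1343 CPM in placebo and 301 and 267 in MPA+E, a change of -2.06 ± 0.21 (edgeR adjusted p = 0.0107). Lpl read 2168 and 1945 against 1180.2 and 864, -1.03 ± 0.16 (edgeR adjusted p = 0.029), and Pparg 63.6 and 60.5 against 26.6 and 24.4, -1.30 ± 0.10 (edgeR adjusted p = 0.00608). Plin4 fell from 6.63 and 7.36 to 1.44 and 1.16, -2.43 ± 0.25 (edgeR adjusted p = 0.0107). None of these 4 overlapped between the groups. Gpam rose from 14.0 and 12.4 to 40.5 and 29.7, 1.39 ± 0.15 (edgeR adjusted p = 0.0117). Leaving out placebo 2 kept only Fabp4 and Pparg, which also held without each of the other libraries. Lpl was lost without placebo 1 and without MPA+E 2 as well. The share of all genes that passed fell in each of these fits.

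In progenitor-like cells Gpam was higher (0.91 ± 0.12 (edgeR adjusted p = 0.0286)) and Pparg lower (-1.48 ± 0.19 (edgeR adjusted p = 0.0267)), the only 2 of 27 members to pass, with 2.71% of all genes (1.58% higher and 1.13% lower). Both calls were lost without placebo 1 or without placebo 2, where the share of all genes that passed fell too. They held without MPA+E 1 or MPA+E 2, where that share rose. Adipogenesis-regulatory-like cells, named from Gdf10 and Clec11a, had Klf15 (1.76 ± 0.28 (edgeR adjusted p = 0.0167)) and Gpam (1.43 ± 0.15 (edgeR adjusted p = 0.00327)) higher and none lower of 25, with 3.73% of all genes (2.52% higher and 1.21% lower). Pparg was at -0.94 in them (edgeR adjusted p = 0.0531). Klf15 stood there at 2.22 and 2.94 CPM in placebo and 8.57 and 8.25 in MPA+E. Lobular-like cells, named from Thbs4 and Bmp5, had Gpam higher (1.51 ± 0.22 (edgeR adjusted p = 0.0145)), the 1 of 23 members past the threshold, with 2.5% of all genes (1.68% higher and 0.813% lower). Pparg (-1.36, edgeR adjusted p = 0.0886) and Zfp423 (-1.12, edgeR adjusted p = 0.0874) missed it there. In ECM remodelling-like cells 0 of 26 members passed with edgeR, 5 at an unadjusted p under 0.05 and 0 with limma-voom, against 1.23% of all genes (0.637% higher and 0.597% lower). Pparg was at -0.59 (edgeR adjusted p = 0.147).

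Of 28 members, Lpl was the 1 whose response differed between the preadipocyte-like and progenitor-like classes in the main clustering. In progenitor-like cells it stood at 346 and 315 CPM in placebo and 291 and 190.2 in MPA+E. The difference of the 2 log2 fold changes was -0.56 ± 0.11 (edgeR adjusted p = 0.0414), where 3.41% of all genes passed (2.1% higher and 1.31% lower), and it was lost without placebo 1 and without placebo 2. Without placebo 2 Fabp4 and Cd36 passed in its place, and at clustering resolution 0.5 Fabp4, Cd36 and Lpl all passed, with 1.51% and 8.66% of all genes. In the main clustering the difference was -1.01 ± 0.23 for Fabp4 (edgeR adjusted p = 0.0621), -1.03 ± 0.34 for Cd36 (edgeR adjusted p = 0.164), for Gpam 0.49 ± 0.18 (edgeR adjusted p = 0.198) and for Pparg 0.20 ± 0.17 (edgeR adjusted p = 0.584), none past the threshold.

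**Figure D4:**
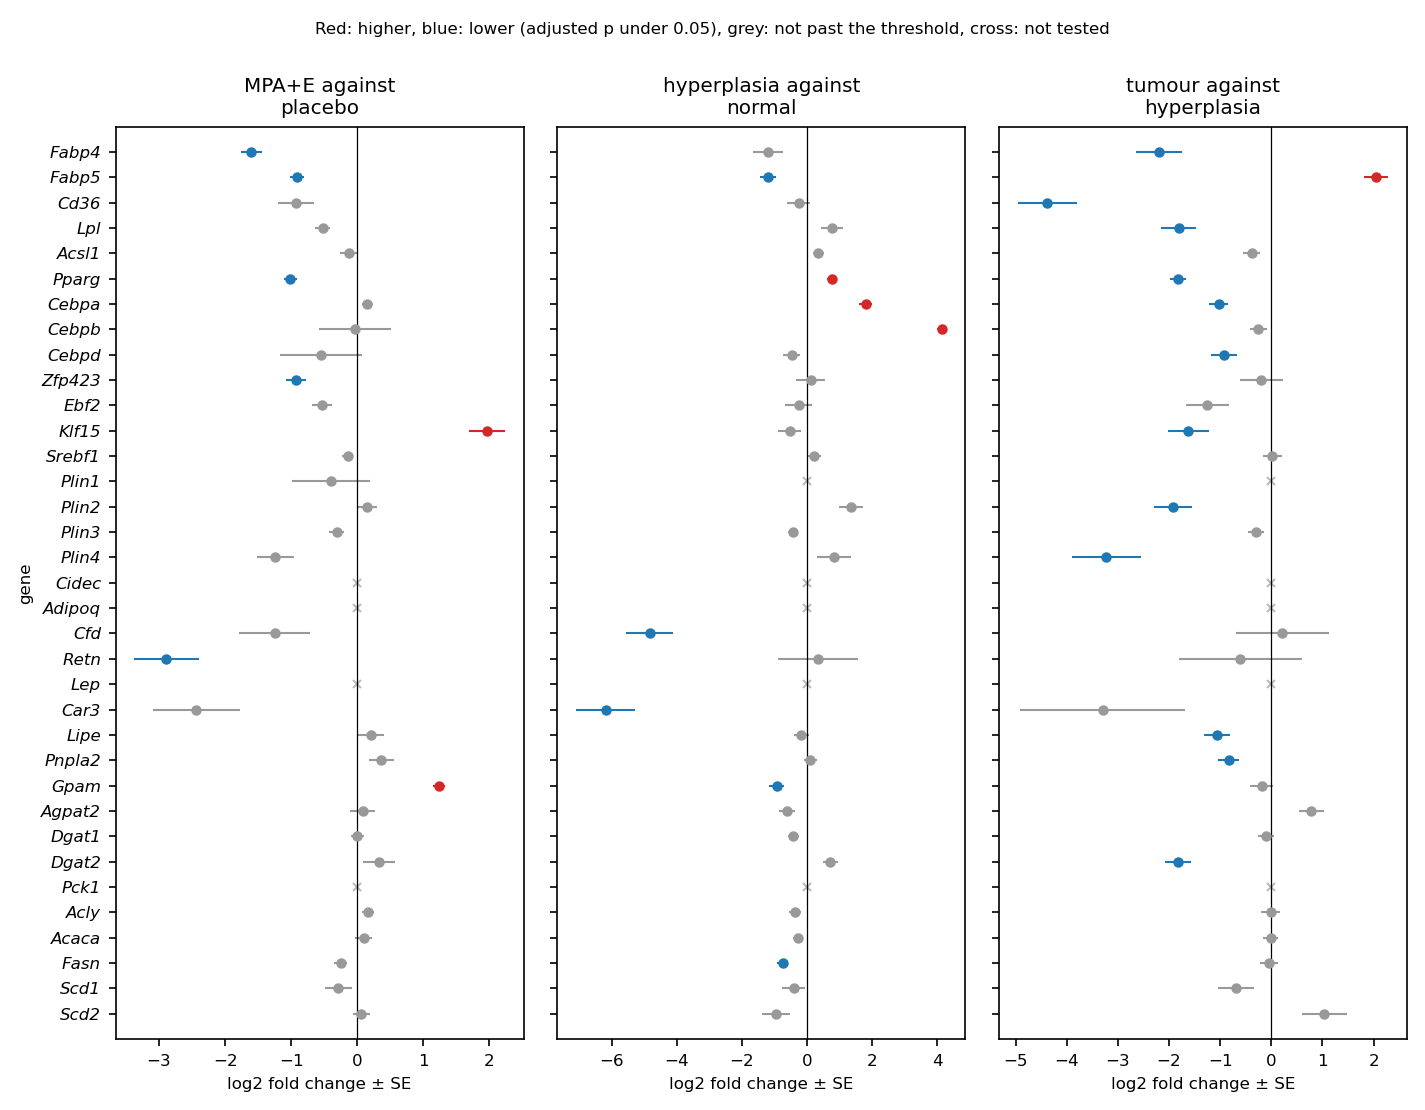
Log2 fold change with its standard error of each gene in MPA+E against placebo (edgeR, 2 libraries against 2), hyperplasia against normal and tumour against hyperplasia (limma-voom, 2 against 2 in 1 fit of 6 libraries); red is higher and blue lower at an adjusted p under 0.05, grey did not pass and a cross was not tested. Most coloured points in the tumour panel are lower, and Fabp5 alone is higher.

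In hyperplastic glands of raGFP-Wnt1 mice, Cebpb, Cebpa and Pparg were higher than in the normal puberty and adult glands, and Fabp5, Car3, Cfd, Fasn and Gpam were lower. Of 30 members tested, 3 were higher and 5 lower (limma-voom, Benjamini-Hochberg over 16292 genes), where 14.0% of all genes passed, 7.7% higher and 6.28% lower. The median log2 fold change was -0.27 over the members and -0.01 over all genes. Hyperplasia also differed from the normal libraries in strain background, age, sort and transgene, and these cannot be told apart. Class makeup differed too, in sets clustered apart. ECM remodelling-like cells were 1.99% and 12.5% of puberty and adult and 45.2% and 40.9% of hyperplasia fibroblasts. In the sums, class shares and levels within cells cannot be told apart. This comparison and that of tumour with hyperplasia share the 2 hyperplasia libraries.

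Cebpb stood at 55.7 and 60.8 CPM in puberty and adult and 1129 and 967 in hyperplasia, a log2 fold change of 4.13 ± 0.16 (limma-voom adjusted p = 0.00127), with the library split described for it above. Cebpa was at 8.91 and 9.85 and 35.4 and 32.1, a change of 1.81 ± 0.20 (limma-voom adjusted p = 0.00949), and it too had the same 3 libraries lowest of the 13. Pparg read 12.4 and 11.1 and 20.1 and 20.01, a change of 0.75 ± 0.15 (limma-voom adjusted p = 0.0331). None of the 3 overlapped between the groups. The 12 immediate early and stress genes, a list added after the data were seen, summed to 19972 and 24894 CPM in puberty and adult and 49539 and 41595 in hyperplasia, with 5 of 12 higher and 0 lower. Cebpb and Cebpd are induced with such genes when cells are stressed, and the part of tissue handling in these levels was not tested. Cebpd was at 1508 and 1435 in the normal and 1019.9 and 1167 in the hyperplasia libraries and did not pass.

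Fabp5 was lower, 24.5 and 21.1 CPM in puberty and adult and 10.6 and 9.71 in hyperplasia, -1.20 ± 0.24 (limma-voom adjusted p = 0.0313). Car3 fell from 38.5 and 16.1 to 0.195 and 0.538 CPM, -6.19 ± 0.91 (limma-voom adjusted p = 0.0174), and it was lower in both hyperplasia libraries than in any of the 9 libraries of C57BL/6 mice. Cfd had 23 and 36 UMIs in the normal and 0 and 2 in the hyperplasia libraries. It passed as lower (limma-voom adjusted p = 0.0185), with a ratio of summed levels of 0.0322 (95% interval 0.00381 to 0.122, counting error only). Gpam read 28.1 and 25.4 and 11.4 and 17.6, -0.94 ± 0.22 (limma-voom adjusted p = 0.0425), and Fasn 45.0 and 35.7 and 24.3 and 24.4, -0.75 ± 0.17 (limma-voom adjusted p = 0.0405). All 5 were lower in both hyperplasia libraries than in both normal ones. The adipocyte markers outside the members summed to 5.29 and 3.43 CPM in the normal and 2.19 and 2.25 in the hyperplasia libraries, with 1 of 8 tested lower and a median log2 fold change of -1.22. Endothelial markers summed to 27.1 and 30.6 against 8.60 and 15.3 CPM, with 3 of 9 lower and 1 higher. The part of such cells in the lower member values was not tested. Plin2 stood at 72.1 and 151 and 212 and 339 CPM without overlap and did not pass (1.34, limma-voom adjusted p = 0.0571).

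Of these 8 calls, 1 held against another set of normal glands. With the 2 placebo libraries of 9-week mice in place of puberty and adult, an alternative chosen after the data were seen, 281 genes passed where 2278 had. Of the members, only Car3 (-5.04 (limma-voom adjusted p = 0.0108)) and Scd2 (-1.0 (limma-voom adjusted p = 0.044)) passed, both lower. Scd2 was at 123 and 128 CPM in placebo and 68.5 and 59.5 in hyperplasia. Cebpb was then 0.45 (limma-voom adjusted p = 0.553), Cebpa 0.79 (limma-voom adjusted p = 0.0911) and Gpam -0.08 (limma-voom adjusted p = 0.888). Cfd was at -4.05 (limma-voom adjusted p = 0.0639), Fabp5 at -0.83 (limma-voom adjusted p = 0.15) and Fasn at -0.40 (limma-voom adjusted p = 0.199). Each of these changes was smaller than with puberty and adult, in the same direction, and did not pass. Pparg turned to -0.12 (limma-voom adjusted p = 0.691). Of the single libraries, leaving out puberty, hyperplasia 1 or hyperplasia 2 left 1 member, Cebpb, leaving out the adult left Cebpb and Car3, and leaving out either tumour library gave 11, with 28.3% and 28.4% of all genes where the other 4 fits had at most 0.957%.

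Against fibroblasts of the hyperplastic gland of the same mice, tumour fibroblasts were lower in 3 of 5 uptake genes (Fabp4, Cd36 and Lpl), in 4 of 8 factors (Pparg, Cebpa, Cebpd and Klf15), in Plin2 and Plin4 of the droplet coats and in Lipe, Pnpla2 and Dgat2 of the enzymes, and Fabp5 was higher. Of 30 members tested, 12 were lower and 1 was higher (limma-voom), where 29.3% of all 16292 genes passed, 15.4% higher and 13.9% lower. The median log2 fold change was -0.65 over the members tested and -0.01 over all genes. Class makeup differed as well: preadipocyte-like cells were 13.5% and 15.0% of hyperplasia and 10.6% and 3.80% of tumour fibroblasts, and ECM remodelling-like cells 45.2% and 40.9% and 12.6% and 11.1%. Progenitor-like cells were 22.0% and 26.2% of hyperplasia and 28.0% and 4.49% of tumour fibroblasts. An unnamed cluster led by Igfbp2, Cpxm2 and Fmod held 3.81% and 3.51% of hyperplasia and 24.5% and 30.03% of tumour fibroblasts, and another, led by Adamts8, Pthlh and Ccdc3, 1.51% and 1.54% and 13.1% and 29.2%. At clustering resolution 0.5 ECM remodelling-like cells were 31.4% and 28.4% of hyperplasia and 6.70% and 5.95% of tumour fibroblasts, and preadipocyte-like cells 12.01% and 13.2% and 6.46% and 2.79%. Lobular-like cells were 2.71% and 0.914% of hyperplasia and 0.449% and 0% of tumour fibroblasts in the main clustering. At resolution 0.5 they were 2.83% and 1.05% and 21.9% and 23.3%, so class names in the tumours depended on the clustering. In the sums, a change in class shares and a change within cells cannot be told apart.

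These 4 uptake genes differed. Cd36 stood at 9.86 and 17.8 CPM in hyperplasia and 0.985 and 0.399 in tumour, a log2 fold change of -4.38 ± 0.58 (limma-voom adjusted p = 0.00739). Fabp4 read 77.1 and 219 and 33.2 and 23.8, -2.19 ± 0.45 (limma-voom adjusted p = 0.0193), and Lpl 1324 and 1178 and 498 and 254, -1.81 ± 0.34 (limma-voom adjusted p = 0.0159). Fabp5 went up from 10.6 and 9.71 to 33.7 and 52.2 CPM, 2.05 ± 0.24 (limma-voom adjusted p = 0.00564), to the highest levels of all 13 libraries. No tumour library overlapped a hyperplasia library for these 4 genes, which were picked by the test on the same libraries. The endothelial markers summed to 8.60 and 15.3 CPM in hyperplasia and 9.08 and 19.6 in tumour, overlapping ranges, and 1 of 9 tested was higher (Flt1, log2 fold change 2.27 ± 0.51 (limma-voom adjusted p = 0.0241)). Among cells named preadipocyte-like, Cd36 was 47.4 and 87.9 CPM in hyperplasia and 4.75 and 2.61 in tumour, with no test. Fabp4 was 289 and 882 in hyperplasia and 70.0 and 145 in tumour. The study reported that Cd36-positive committed preadipocytes were absent from tumours. Whether the tumour cells under this name are the same population as in hyperplasia was not tested.

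Of the factors, Pparg was lower at 5.804 and 5.45 CPM in tumour against 20.1 and 20.01 in hyperplasia, -1.83 ± 0.16 (limma-voom adjusted p = 0.00284), and Cebpa at 19.0 and 14.3 against 35.4 and 32.1, -1.03 ± 0.19 (limma-voom adjusted p = 0.0151). Klf15 stood at 0.888 and 0.399 against 1.88 and 1.86, -1.62 ± 0.40 (limma-voom adjusted p = 0.03). Each was lower in both tumours than in both hyperplasia libraries. Cebpd was at 729.5 and 451 against 1019.9 and 1167, -0.93 ± 0.26 (limma-voom adjusted p = 0.0415), which with mouse as a block became an adjusted p of 0.0579 (limma-voom). Cebpb (910.5 and 846 against 1129 and 967) and Zfp423 (14.0 and 6.19 against 9.29 and 12.3) did not pass. Ebf2, at 122 and 48.9 CPM in tumour and 195 and 171 in hyperplasia, passed only with the block (-1.27, limma-voom adjusted p = 0.0421). The immediate early and stress genes summed to 26064 and 17549 CPM in tumour, below hyperplasia, with 6 of 12 lower.

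In droplets, Plin2 read 64.3 and 77.1 CPM in tumour against 212 and 339 in hyperplasia, -1.92 ± 0.37 (limma-voom adjusted p = 0.0168), and Plin4 0.849 and 0.194 against 2.74 and 5.47, -3.23 ± 0.67 (limma-voom adjusted p = 0.0202). Neither overlapped, and with the mouse block Plin4 had an adjusted p of 0.0528 (limma-voom). Plin1 was at 0.0780 and 0.0911 against 0.0885 and 0.0552. Both lipases were lower. Lipe was at 1.41 and 1.18 against 2.90 and 2.55, -1.06 ± 0.25 (limma-voom adjusted p = 0.0273), and Pnpla2 at 7.23 and 5.55 against 11.8 and 10.9, -0.83 ± 0.20 (limma-voom adjusted p = 0.0282). Dgat2 stood at 0.7999 and 0.649 against 2.62 and 2.55, -1.83 ± 0.26 (limma-voom adjusted p = 0.00845). These 3 enzymes too were lower in both tumours than in both hyperplasia libraries.

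Of the other enzymes of synthesis, Gpam (12.7 and 12.3 CPM in tumour against 11.4 and 17.6 in hyperplasia) and Fasn (22.2 and 25.0 against 24.3 and 24.4) did not pass. Agpat2, the second step of glycerolipid synthesis, was higher in both tumours (14.2 and 21.2 against 8.496 and 11.8) at the threshold without passing it (0.78, limma-voom adjusted p = 0.05), and passed with mouse as a block (0.80, limma-voom adjusted p = 0.0265). Scd2, at 143 and 120.4 against 68.5 and 59.5, also passed only with the block (1.04, limma-voom adjusted p = 0.0173). Car3 was at 0.0195 and 0.0456 against 0.195 and 0.538 CPM, from 2 and 4 against 11 and 39 UMIs, and passed as lower only with the block (limma-voom adjusted p = 0.0258). Cfd (1 and 2 against 0 and 2 UMIs) and Retn (7 and 6 against 16 and 3 UMIs) rested on too few UMIs to compare.

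The block gave 15 members in all, 3 higher and 12 lower, with 30.2% of all genes. Without hyperplasia 1 only Fabp4, Cd36 and Pparg passed, and without hyperplasia 2 only Cd36 and Pparg. Of all genes, 1.48% and 1.84% passed in those fits. Without tumour 1 there were 16 members with 41.8% of all genes, without tumour 2 there were 9 with 20.4%, and without puberty or adult 11 each with 17.4% and 17.2%. Cd36 and Pparg were lower in every one of these fits.

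Genes of the same pathways outside the 35 were read from 5 further lists, which were drawn up with earlier results of these data known. Under MPA+E 4 genes over the 5 lists passed the test, near the background of 4.34% of all genes. None of 25 adipogenic regulators passed (edgeR; 8 at an unadjusted p under 0.05, 3 with DESeq2 and 0 with limma-voom). The smallest p were those of Wnt10b, a Wnt ligand that blocks adipogenesis, at -1.30 ± 0.25 (edgeR adjusted p = 0.0644), and Gata3, a factor that holds preadipocytes back, at 1.52 ± 0.30 (edgeR adjusted p = 0.0661). In triglyceride handling 1 of 19 was higher (Cav1, 1.18 ± 0.17 (edgeR adjusted p = 0.0328)) and 1 lower (Mgll, -0.85 ± 0.12 (edgeR adjusted p = 0.0315)). Of 21 uptake and oxidation genes 1 was higher, Gpihbp1, an endothelial anchor of lipoprotein lipase, at 0.0288 and 0.0139 CPM in placebo and 0.253 and 0.263 in MPA+E. Of 11 elongation and desaturation genes 1 was lower (Elovl7, -2.33 ± 0.38 (edgeR adjusted p = 0.0421)), and of 22 cholesterol synthesis genes none passed (edgeR; 3 unadjusted, 0 with DESeq2 and 0 with limma-voom).

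In hyperplasia against normal, where 7.7% of all genes were higher and 6.28% lower, 3 of 26 regulators were higher and 0 lower, with Bmp4 at 3.76 ± 0.51 (limma-voom adjusted p = 0.0137) and Nr2f2 at 1.22 ± 0.24 (limma-voom adjusted p = 0.0299). In triglyceride handling 3 of 20 were lower, led by Cav1 (-1.10 ± 0.24 (limma-voom adjusted p = 0.0362)) and Lpin3 (-0.98 ± 0.23 (limma-voom adjusted p = 0.043)). Of 21 uptake and oxidation genes 1 was higher and 4 lower, with Cpt2, which carries fatty acids into mitochondria, at -1.38 ± 0.17 (limma-voom adjusted p = 0.0117) and Gpihbp1 at 0 CPM in both hyperplasia libraries. The elongation list had 1 of 11 higher and 2 lower, and the cholesterol list none of 22 (limma-voom; 1 unadjusted, 1 with DESeq2 and 0 with edgeR).

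In tumour against hyperplasia, where 15.4% of all genes were higher and 13.9% lower, the regulators had the most calls of the 5 lists, 12 of 26 lower and 1 higher, with a median log2 fold change of -0.97 against -0.01 over all genes. They summed to 9616 and 8323 CPM in hyperplasia and 4596 and 2290.5 in tumour. Nr1h3, the oxysterol receptor LXRα, was at -1.51 ± 0.19 (limma-voom adjusted p = 0.0065) and Bmp4 at -3.79 ± 0.47 (limma-voom adjusted p = 0.0067). Triglyceride handling had 4 of 20 lower and 0 higher, led by Gpat3 (-2.04 ± 0.38 (limma-voom adjusted p = 0.0159)) and G0s2, an inhibitor of Pnpla2 (-1.49 ± 0.29 (limma-voom adjusted p = 0.0174)). Uptake and oxidation had 4 of 21 higher and 3 lower, near the 29.3% of all genes that passed, with Slc27a3 at 1.76 ± 0.18 (limma-voom adjusted p = 0.00443) and Pdk4, which spares glucose when fatty acids are burnt, at -2.76 ± 0.38 (limma-voom adjusted p = 0.00817). Elongation had 2 of 11 higher and 3 lower, with Fads3 at 1.69 ± 0.23 (limma-voom adjusted p = 0.00782) and Mlxipl, a glucose-responsive factor of lipid synthesis, at 0.443 and 0.387 CPM in hyperplasia and 0.0293 and 0.0114 in tumour. Cholesterol synthesis had 1 of 22 higher (Scap) and 1 lower (Insig1), with a median of 0.52. Among markers of other cells, 3 of 8 tested adipocyte markers were higher (Adrb3, Mrap and Lrg1) and 1 lower (Trarg1). Of macrophage markers 3 of 4 were higher and 1 lower, and of pericyte markers 2 of 6 were higher. Epithelial markers summed to 20.3 and 59.8 CPM in hyperplasia and 4.17 and 1.80 in tumour, with 1 of 4 tested lower. The part of these cells in the member values was not tested. The further adipocyte markers summed to 2.19 and 2.25 CPM in hyperplasia and 3.69 and 3.79 in tumour.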

How the data were processed

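Per the labels, stromal cells were run on 10x Chromium with a 3′ version 3 kit. The authors made the matrices with Cell Ranger 6.1.2 on mm10 (build and version from the submitters' processing notes), and the deposited values are filtered raw UMI counts per gene and barcode, with no normalization. The annotation release is not given in the sources used here. The members and all gene lists were chosen with earlier results of these data known.

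UMIs of fibroblast barcodes were summed per library, since cells are not replicates. No doublets were removed in the main sums; removing the highest Scrublet scores (0.8% per 1000 barcodes) was an alternative. The quasi-likelihood test of edgeR 4.0.16 compared MPA+E with placebo, and voom in limma 3.58.1 compared normal, hyperplasia and tumour in a joint fit of 6 libraries (limma-voom). The latter follows the study's methods, which name the edgeR pipeline for clusters of normal fibroblasts; its use for MPA+E was chosen here. Both used TMM factors and the filterByExpr filter. All tests were two-sided, with Benjamini-Hochberg adjustment over all genes tested and a threshold of 0.05. The tests of MPA+E against placebo and of hyperplasia against normal, over all fibroblasts, were checked on counts simulated with a fixed dispersion. The other contrasts and the fits by class were not simulated. Per the labels each raGFP-Wnt1 mouse gave 1 hyperplasia and 1 tumour library, so the numbers pair these samples. Their deviations from the group means correlated at 0.152 over 13460 genes and -0.221 over 27 members.

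Classes came from Seurat 5.3.0 clustering (1000 features without members, listed lipid genes and markers, 30 dimensions, resolution 0.3), with the stage, hormone and raGFP-Wnt1 sets apart. Class names were rebuilt here without the annotation of the study, which may differ. Only classes with at least 50 cells in a library were described and with at least 100 in each of the 4 libraries tested. Other cell types were barcodes under the fibroblast marker limit with at least 2 UMIs of 1 of Pecam1, Rgs5, Epcam and Sox10, in libraries with at least 20. Of the 35 members, values in every library are given for those past the test in 1 of the 3 fits over all fibroblasts, and for those that differed at least 3 times between stages with at least 30 UMIs; from each further list, the genes with the smallest p are named. Alternatives were other scalings, filters, tests, fibroblast limits and clustering, the replicate block and leaving out each library. Analyses used R 4.3.3 and Python 3.11.15; gene positions are from GENCODE M21 on GRCm38.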

Additional observations from a re-analysis of the deposited data

Results flagged for a closer look

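The response of Lpl to MPA+E differed between 2 fibroblast classes. In the preadipocyte-like class it was lower than in the progenitor-like class, a difference of the log2 fold changes of -0.56 (SE 0.11, edgeR adjusted p = 0.0414), and both MPA+E libraries were below both placebo libraries in each class. It was the only call among 28 members, a share near the 3.41% of all genes that passed. It was lost without placebo 1 and without placebo 2. At clustering resolution 0.5, Fabp4 and Cd36 passed along with it, with 8.66% of all genes.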

How the results depend on the processing

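No setting other than the 2 named here changed the direction of a called member. With the placebo libraries as normal tissue (chosen after seeing the data), 281 genes and 2 members differed in hyperplasia where 2278 and 8 did with puberty and adult, and Pparg turned to -0.12. With all barcodes kept, the ratio of Cd36 between puberty and lactation was 0.870, and 3 members passed under MPA+E, with 2.83% of all genes. DESeq2 called 1360 genes under MPA+E (main 678) and 4017 in hyperplasia. The cause of these shifts was not tested. Without a filter on low counts, members called by class under MPA+E were 8 in adipogenesis-regulatory-like, 4 in ECM remodelling-like, 4 in lobular-like, 12 in preadipocyte-like and 5 in progenitor-like cells, against 2, 0, 1, 5 and 2, and 7 against 1 for the difference between classes. Of all genes 5.78%, 4.36%, 4.31%, 8.89% and 4.39% then passed in the same order of classes, against 3.73%, 1.23%, 2.5%, 4.42% and 2.71%, and 6.17% against 3.41% for the difference. At clustering resolution 0.5 the progenitor-like class had 5 and the difference 3. The share of all genes that passed then rose as well, well above 2.71% for that class and to 8.66% for the difference. Thinning lowered the median share of fibroblasts with a UMI to 10.6% for Fabp4, 1.12% for Cd36, 0% for Adipoq and 3.41% for any endothelial marker.

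The placebo and MPA+E libraries share only a number, with deviations that correlated at 0.497 over 13460 genes and 0.863 over 27 members. With this replicate block 2450 genes and 15 members passed, and by class 11, 6, 6, 13 and 7 members in the order above, with 15.7% of all genes over all fibroblasts and 16.1%, 12.7%, 11.2%, 16.1% and 9.2% by class. For tumour and hyperplasia the block by mouse gave the changes named in the report and no other.

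Leaving out each library in turn gave 3 to 904 genes and 0 to 8 members under MPA+E, 1 to 4811 and 1 to 11 in hyperplasia and 250 to 7118 and 2 to 16 in tumour. By class, and for the difference between classes, the members called and the share of all genes called both moved with the library left out. A group left with 1 library is assumed to vary like the others. With 2 libraries per group, 1 per stage and under 200 UMIs in all for Adipoq, Cfd, Cidec, Plin1 and Retn, small changes were not detectable.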
